A study of Mus musculus with 2 samples.

Results

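Hsd3b5 and 7 further genes of steroid-metabolizing enzymes were described in spatial transcriptomes of mouse liver. The 8 genes are Hsd3b5, Hsd3b2, Hsd3b3, Hsd11b1, Hsd17b2, Hsd17b6, Srd5a1 and Akr1c6. They were taken by symbol from the 32285 genes of the count matrices, and all 8 had a row in both sections. The genes were selected on their measured levels in the HFD and NCD sections, so each HFD over NCD ratio below is a description and supports nothing.

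The study bought male C57BL/6J mice at 5 weeks of age and kept them on the control diet (NCD) or on a 60% high-fat diet (HFD) for 14 weeks to induce fatty liver. Over the next 8 weeks mice of both groups received distilled water by mouth every day, as controls of a drug treatment that is not part of these sections. One frozen liver section per diet, cut at 10 µm, was placed on a 10x Visium slide, where each spot captures the polyadenylated RNA of a small area that can hold several cells, and a unique molecular identifier (UMI) lets copies of a molecule be counted as 1. There was 1 mouse per group and 1 section per mouse, so diet, animal, section and slide area cannot be told apart, and no test was possible.

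Liver takes up steroid hormones from blood and inactivates them. Enzymes named HSD (hydroxysteroid dehydrogenase) and AKR1C (aldo-keto reductase) reduce or oxidize the hydroxyl and keto groups of steroids, SRD5A enzymes saturate the A ring, cytochromes P450 hydroxylate the ring system, and sulfotransferases and glucuronosyltransferases make the products soluble. Many of these genes are expressed in a gradient between the portal vein, where blood enters the lobule, and the central vein, where it leaves. Hsd3b5 is a liver member of the mouse 3β-HSD family that acts as a 3-ketosteroid reductase, and it is known for higher expression in males.

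Over tissue there were 3692 spots in NCD, with 29037988 UMIs in all (median 4187.5 per spot), and 3594 in HFD, with 72118803 UMIs (median 18549). Spots outside the tissue held 19.1% of all UMIs in the NCD capture area and 2.93% in the HFD area. Their median was 3383 UMIs per spot in NCD and 1175.5 in HFD. Subtraction of the off-tissue profile left 692 of the 1783 NCD UMIs of Hsd3b5 and 3.43 of its 6 in HFD. For Hsd17b6 it left 288 of 1228 in NCD and 7012 of 7372 in HFD. The levels, counting intervals and lobule gradients below are not corrected for this background unless stated. The capture areas shared all 4992 spot barcodes, as slides of this design do, and 3173 barcodes lay over tissue in both. The labels call the material a hematopoietic stem cell line and immune cells of liver. The data went against this. A list of 6 hepatocyte markers (Alb, Apoa1, Ttr, Apoa2, Serpina1a and Trf) summed to 109778 CPM (counts per 1000000 UMIs) in NCD. Their sum in HFD was 127900 CPM. In the same order, 5 haematopoietic stem cell markers summed to 5.92 and 9.33 CPM and 3 leukocyte markers to 8.85 and 11.8 CPM. Markers of Kupffer cells and macrophages (5 genes) summed to 192 and 231 CPM.

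Hsd3b5 had the largest HFD over NCD difference of the 8 genes. It was counted 1783 times in the NCD section (61.4 CPM, 95% counting interval 58.6 to 64.3) and 6 times in the HFD section (0.0832 CPM, 0.0305 to 0.181). The level in HFD was 738-fold lower (interval 338 to 2014), a log2 ratio of −9.53 (−10.98 to −8.40). Hsd3b5 had the lowest ratio of the 10665 genes that reached 200 UMIs when both sections were added. All intervals given here are exact, Poisson for a level, conditional binomial for a ratio and Clopper-Pearson for a share, and they cover counting error only. They do not cover the spread between mice.

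The 6 UMIs of Hsd3b5 in HFD lay in 5 spots, with at most 2 in a spot. These spots held between 10913 and 34682 UMIs, and all 5 barcodes were over tissue in the NCD section too, where 1 of them had an Hsd3b5 UMI. In NCD, 1065 of 3692 spots (28.8%, 27.4 to 30.3) had at least 1 Hsd3b5 UMI, with a maximum of 9. Depth differed between the sections, so each spot with at least 1000 UMIs was thinned to 1000 random UMIs, which left out 840 NCD and 4 HFD spots. At this depth 186 of 2852 NCD spots (6.52%, 5.64 to 7.49) held Hsd3b5. In HFD it was 0 of 3590 spots (upper Clopper-Pearson limit 0.103%). A floor of 3 counts over the section would be a share of 0.0836%, and against this floor the thinned HFD level was at least 83.9-fold lower than that in NCD. At 3000 UMIs per spot the shares were 17.0% in NCD and 0.0848% in HFD (3 of 3538 spots).

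**Figure D1:**
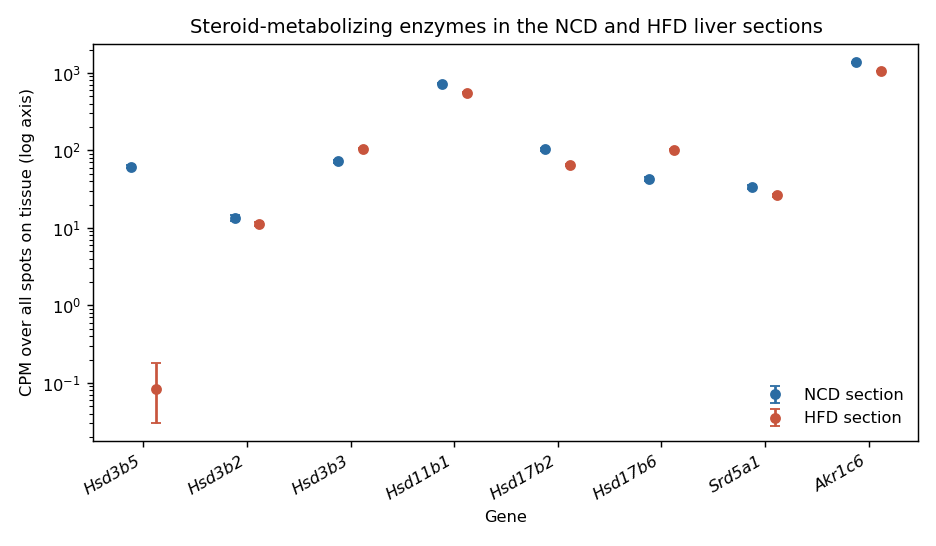
Level of each of the 8 genes in CPM on a log axis, pooled over all spots on tissue, in the NCD section (blue) and the HFD section (red), 1 mouse each; bars are 95% Poisson intervals and many are smaller than the point. Hsd3b5 stood at 61.4 CPM in NCD and 0.0832 CPM in HFD, while the other 7 genes differed by at most 2.42-fold.

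The other 7 genes differed far less. Of the 8 genes, 1 was lower and 1 higher in HFD past 2-fold, and the direction was lower for 6 and higher for 2. Among the 10665 genes tested, 1.84% were lower and 9.3% higher past 2-fold. The median log2 ratio was −0.35 over the 8 genes and 0.23 over all genes tested. The median over the 6422 genes with at least 1000 UMIs was 0.19, and the ratios of single genes can be read relative to this value. With that median set to 0, the directions of all 8 genes stayed as given, and the share of higher genes among all genes past 2-fold moved from 83.5% to 70.4%.

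Hsd3b5, Hsd3b2 and Hsd3b3 lie on the minus strand of chromosome 3 within 144494 bases (GRCm38, chr3:98618634-98630252, chr3:98709255-98724543 and chr3:98741523-98763127). Mouse 3β-HSD enzymes fall into those that make Δ4-3-ketosteroids such as progesterone and those, like Hsd3b5, that reduce 3-ketosteroids. Hsd3b2 was counted 391 times in NCD (13.5 CPM, 12.2 to 14.9) and 807 times in HFD (11.2 CPM, 10.4 to 12.0), a log2 ratio of −0.27 (−0.44 to −0.09). After thinning, with 31 and 54 UMIs left, the ratio of Hsd3b2 was 0.47 (−0.19 to 1.16), so its direction was not settled. Hsd3b3 was higher in HFD, at 105 CPM (103 to 107) against 72.2 CPM (69.1 to 75.3), a log2 ratio of 0.54 (0.47 to 0.61). Thus the 3 neighbouring genes had 3 different ratios in pooled counts. The thinned interval of Hsd3b2 holds the Hsd3b3 ratio, so that draw did not set these genes apart. It kept few Hsd3b2 UMIs and does not show that the ratios were alike. Another draw at the same depth had Hsd3b2 in 0.98% of NCD and 1.00% of HFD spots. At 3000 UMIs per spot, Hsd3b2 was in 3.51% of NCD and 3.28% of HFD spots, with overlapping intervals. Hsd3b3 was in 18.6% (17.0 to 20.3) of NCD and 26.3% (24.8 to 27.7) of HFD spots at that depth. The ratio of Hsd3b5 was far lower than those of both genes.

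The assay reads the 3′ ends of transcripts, and near-identical family members can lose or exchange reads there. In the last 500 bases of its transcript, Hsd3b5 shared none of its 451 words of 50 bases with Hsd3b1, Hsd3b2, Hsd3b3, Hsd3b4 or Hsd3b6. Its closest relative was Hsd3b4 (86.6% identity), which had 0 UMIs in both sections. Hsd3b3 shared 143 of 451 words with its family and was 93.1% identical to Hsd3b6, which had 1 UMI in each section, so a part of the Hsd3b3 signal cannot be assigned to this gene with certainty.

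The sequences around the RefSeq transcription starts of the 3 neighbours are shown because the genes share ancestry and Hsd3b5 differed from its neighbours in its ratio. Each runs 5′ to 3′ on the minus strand of GRCm38.p6, from 200 bases before the start through the first 30 transcribed bases. Capitals mark a match to CAAAGTNCA, a word like the half-site bound by HNF4A, a nuclear receptor of hepatocytes. This word was picked after the sequences had been read.
Hsd3b5, chr3:98645505-98645734: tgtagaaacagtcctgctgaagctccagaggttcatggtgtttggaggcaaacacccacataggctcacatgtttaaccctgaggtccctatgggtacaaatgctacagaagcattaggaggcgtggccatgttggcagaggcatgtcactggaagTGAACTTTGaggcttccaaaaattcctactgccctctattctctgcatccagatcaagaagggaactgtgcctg
Hsd3b2, chr3:98724514-98724743: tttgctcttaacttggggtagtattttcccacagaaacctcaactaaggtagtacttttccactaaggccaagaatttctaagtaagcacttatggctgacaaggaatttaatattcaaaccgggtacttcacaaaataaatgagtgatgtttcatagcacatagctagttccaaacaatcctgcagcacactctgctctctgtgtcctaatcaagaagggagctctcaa
Hsd3b3, chr3:98763099-98763328: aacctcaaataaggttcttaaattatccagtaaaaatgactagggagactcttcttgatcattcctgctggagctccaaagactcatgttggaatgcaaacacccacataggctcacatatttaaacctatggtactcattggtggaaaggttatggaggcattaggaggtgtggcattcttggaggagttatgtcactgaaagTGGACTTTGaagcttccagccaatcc

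The word was present in the windows of Hsd3b5 and Hsd3b3 on the reverse strand, beginning 44 bases before the start of Hsd3b5 and 4 bases after that of Hsd3b3, and absent from the window of Hsd3b2. Of 32851 RefSeq windows of 300 bases (250 before to 50 after a start), 1.41% held it on either strand. The windows of Hsd3b5 and Hsd3b3 aligned over 250 columns with 75.2% identity, while the best local alignment of Hsd3b5 with Hsd3b2 covered 81 columns (74.1% identity). TTCNNNGAA, the core bound by STAT5, which relays growth hormone signals in liver, was found in no window of the 7 genes with an entry and in 8.3% of all windows. The RefSeq start of Hsd3b5 lies 15282 bases upstream of the start in GENCODE M21.

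Hsd11b1 converts inactive 11-keto glucocorticoids into corticosterone within hepatocytes (chr1:193221634-193264075). It was lower in HFD, at 554 CPM (548 to 559) against 725 CPM (715 to 735), a log2 ratio of −0.39 (−0.41 to −0.37). H6pd, which supplies NADPH to this enzyme in the endoplasmic reticulum, was at 92.6 CPM in NCD and 112 CPM in HFD (log2 0.28, 0.22 to 0.34), and the glucocorticoid receptor gene Nr3c1 was at 27.6 and 30.5 CPM (log2 0.15, 0.03 to 0.27). Hsd11b2, which carries out the opposite reaction in kidney, had 0 and 1 UMIs.

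Hsd17b2 oxidizes estradiol and testosterone to their less active 17-keto forms (chr8:117701904-117759027). Its level was 103 CPM (99.2 to 107) in NCD and 65.2 CPM (63.3 to 67.1) in HFD, a log2 ratio of −0.66 (−0.72 to −0.59). Hsd17b6, an enzyme with retinol and 3α-hydroxysteroid dehydrogenase activity, went the other way (chr10:127990936-128007611). It stood at 42.3 CPM (40.0 to 44.7) in NCD and 102 CPM (99.9 to 105) in HFD, a 2.42-fold difference (log2 1.27, 1.19 to 1.36). It was the only one of the 8 genes higher past 2-fold. After thinning to 1000 UMIs, Hsd17b6 was present in 4.10% (3.40 to 4.90) of NCD spots and 9.33% (8.40 to 10.3) of HFD spots.

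Srd5a1, a steroid 5α-reductase, was at 33.4 CPM (31.3 to 35.5) in NCD and 26.2 CPM (25.0 to 27.4) in HFD, a log2 ratio of −0.35 (−0.46 to −0.24; chr13:69573449-69611442). Outside the NCD tissue Srd5a1 stood at 43.2 CPM (38.4 to 48.4), above its level on tissue. Once the off-tissue profile was subtracted, its ratio turned to 1.01, so the direction of Srd5a1 depends on how this background is treated. Akr1c6, which reduces 17-ketosteroids, was at 1366 CPM (1353 to 1380) in NCD and 1064 CPM (1057 to 1072) in HFD (log2 −0.36, −0.38 to −0.34; chr13:4434306-4457877). Its last 500 transcribed bases were 86.0% identical to those of Akr1c20, with 2 of 451 words of 50 bases shared.

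Position in the lobule was read from each spot with at least 1000 UMIs as the share of pericentral UMIs (Cyp2e1, Oat, Cyp1a2, Gulo, Lect2 and Slc1a2) among these and periportal UMIs (Cyp2f2, Sds, Hal, Ass1, Cps1 and Gls2). Spots were ranked by this index within their section and divided into 3 equal parts, called periportal, middle and pericentral below. None of the 8 genes entered the index. Markers left out of it were ordered as their names say. The summed level of Glul, Rhbg, Axin2, Tbx3 and Lgr5 was higher in the pericentral part (log2 3.33 in NCD and 2.98 in HFD), and that of Arg1, Pck1, Aldh1b1 and Etnppl was lower there (−0.88 and −0.68). The median depth was 4589, 7834 and 7779 UMIs per spot from periportal to pericentral in NCD and 24448, 14448 and 17394 in HFD.

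In the NCD section Hsd3b5 was graded towards the central vein. It was at 27.4 CPM (204 UMIs, 23.8 to 31.4) in the periportal part, 59.7 CPM (645 UMIs, 55.2 to 64.5) in the middle and 88.3 CPM (918 UMIs, 82.7 to 94.2) in the pericentral part. The 3 intervals did not overlap, and the pericentral over periportal log2 ratio was 1.69 (1.47 to 1.91). In 10 equal bins the level went from 13.4 CPM at the periportal end to 103 CPM at the pericentral end and was higher in every bin than in the one before, although the intervals of most neighbouring bins overlapped. At 1000 UMIs per spot, Hsd3b5 was found in 3.26%, 6.94% and 9.37% of the spots from periportal to pericentral. In HFD the 3 parts held 2, 3 and 1 UMIs (0.0664, 0.149 and 0.0458 CPM). The order of levels over both sections was thus NCD pericentral, NCD middle, NCD periportal and then the HFD parts, whose intervals overlapped each other. Even the lowest NCD level, in the periportal part, had a log2 HFD over NCD ratio of −8.69 (−11.75 to −6.82).

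Akr1c6 had a gradient of similar size in NCD, at 655, 1240 and 2020 CPM from periportal to pericentral (log2 1.62, 1.58 to 1.67). In HFD it was flatter, at 816, 1062 and 1410 CPM (log2 0.79, 0.76 to 0.81). Hsd17b2 was also higher on the pericentral side, at 83.4, 102 and 118 CPM in NCD (log2 0.50, 0.36 to 0.64) and 59.2, 70.1 and 68.9 CPM in HFD (log2 0.22, 0.12 to 0.32). The HFD gradient of Hsd17b2 was 0.0012 after thinning of index and counts. The shares of thinned HFD spots with a UMI were 6.27%, 5.43% and 6.19%. Thinning to 1000 UMIs left only 224 Hsd17b2 UMIs in HFD, so these values do not show that the gradient was absent.

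Hsd17b6 had the steepest gradient of the 8 genes, towards the portal vein. Its level was 89.0, 34.0 and 17.0 CPM from periportal to pericentral in NCD (log2 −2.39, −2.63 to −2.14) and 164, 71.7 and 45.5 CPM in HFD (log2 −1.85, −1.95 to −1.75). Hsd11b1 was higher on the periportal side as well, at 904, 753 and 569 CPM in NCD (log2 −0.67) and 711, 514 and 373 CPM in HFD (log2 −0.93). Srd5a1 was at 39.4, 36.3 and 26.5 CPM in NCD (log2 −0.57, −0.82 to −0.33) and 27.8, 27.9 and 22.4 CPM in HFD (log2 −0.31, −0.47 to −0.14). The HFD gradient of Srd5a1 was 0.0012 after thinning. Thinning to 1000 UMIs left only 103 Srd5a1 UMIs in HFD, so this value does not show that the gradient was absent. Hsd3b3 and Hsd3b2 had the smallest gradients along the index. Hsd3b3 was at 62.6, 79.4 and 71.3 CPM in NCD (log2 0.19, 0.02 to 0.36). In HFD it was at 105, 104 and 106 CPM (log2 0.01, −0.07 to 0.09). The intervals of the gradient of Hsd3b2 spanned 0 in both sections.

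**Figure D2:**
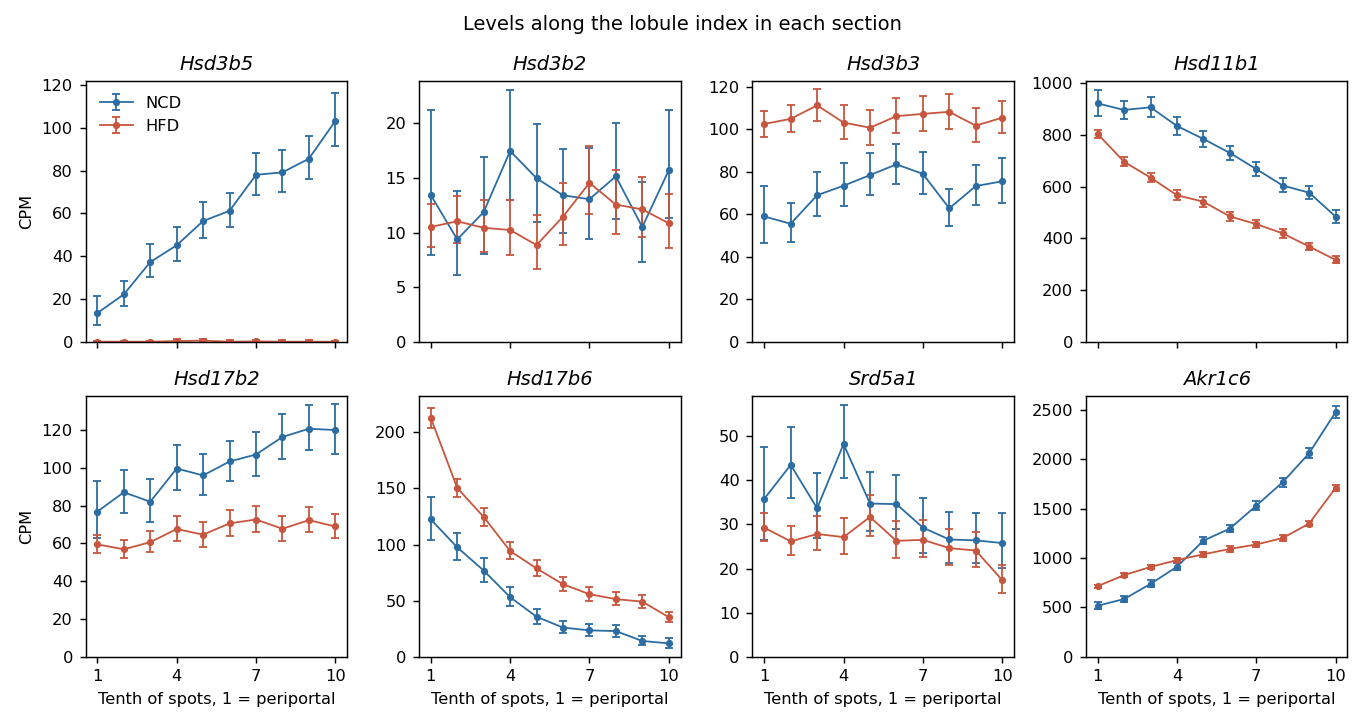
Level of each gene in CPM (vertical axis, from 0) in 10 equal bins of spots ranked by the lobule index within a section (horizontal axis, 1 is the periportal end), NCD in blue and HFD in red, with 95% Poisson intervals. Hsd3b5 went from 13.4 to 103 CPM in NCD and lay near 0 in every HFD bin, Hsd17b6 and Hsd11b1 fell towards the pericentral end in both sections, and the Akr1c6 profiles crossed.

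In NCD, 2 of the 8 genes (Hsd3b5 and Akr1c6) were higher in the pericentral part past 2-fold and 1 (Hsd17b6) was higher in the periportal part, against 1.87% and 0.935% of the 5563 genes tested. In HFD, 0 and 1 of the 7 genes with enough UMIs did so, against 1.5% and 1.1% of 9330 genes. Hsd17b6 ranked 7 among all genes in NCD by its gradient towards the portal side, and Hsd3b5 ranked 47 towards the central side. With the left-out markers as the index, the NCD gradients were shallower, at 0.88 for Hsd3b5, 1.02 for Akr1c6 and −1.55 for Hsd17b6.

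Within the 3 parts of the lobule, the HFD over NCD ratios kept one sign for each gene except Akr1c6. Hsd17b6 had log2 ratios of 0.88 (0.76 to 1.00) in the periportal, 1.08 (0.91 to 1.25) in the middle and 1.42 (1.19 to 1.66) in the pericentral part. The Hsd3b2 intervals spanned 0 in the periportal and pericentral parts. Hsd3b3 was higher in each part, at 0.75, 0.39 and 0.57. Hsd11b1 was lower in each, at −0.35, −0.55 and −0.61, and so was Hsd17b2, at −0.49, −0.54 and −0.77. Akr1c6 was higher in HFD in the periportal part (0.32, 0.27 to 0.36) and lower in the middle (−0.22) and pericentral parts (−0.52, −0.54 to −0.49). With the left-out markers as the index, the periportal ratio of Akr1c6 was −0.12, so that this crossing depends on the markers that place the spots.

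**Figure D3:**
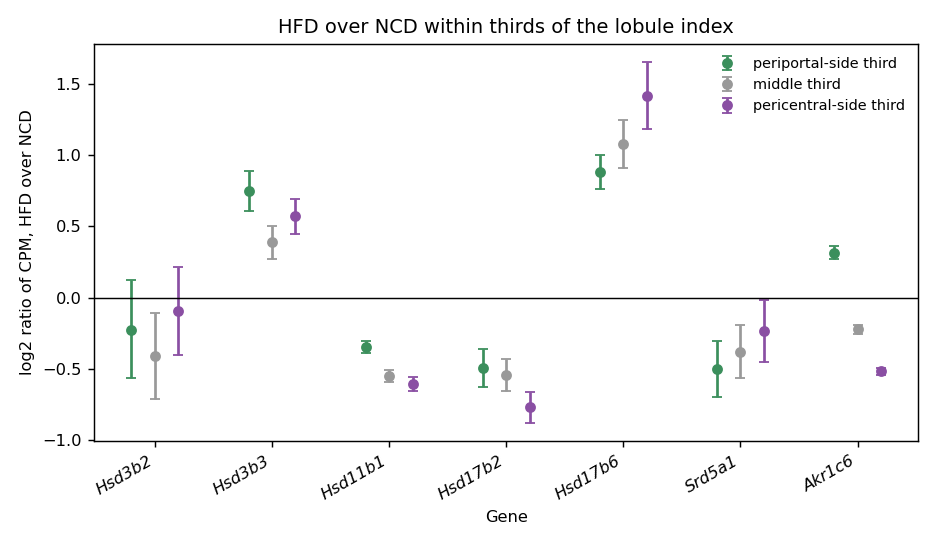
Log2 ratio of CPM, HFD over NCD, within the periportal (green), middle (grey) and pericentral (purple) parts of the lobule index for the 7 genes other than Hsd3b5, with 95% counting intervals. Hsd17b6 lay between 0.88 and 1.42, Hsd3b3 between 0.39 and 0.75, and Akr1c6 went from 0.32 in the periportal to −0.52 in the pericentral part.

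Markers of other cells moved with the sections. Cholangiocyte markers (Krt7, Krt19, Epcam and Spp1, all 4 above 0 in both sections) summed to 47.4 CPM in NCD and 196 CPM in HFD, of which Spp1 made up 43.5 and 187 CPM. The study also names Spp1 as characteristic of a macrophage subgroup, so the sum does not measure cholangiocytes alone. Along the lobule the sum had the direction of Hsd17b6, at 116, 36.7 and 9.14 CPM from periportal to pericentral in NCD and 327, 131 and 74.4 CPM in HFD. The 4 haemoglobin genes summed to 6676 CPM in NCD and 1246 CPM in HFD. Stellate cell and fibroblast markers (5 genes) summed to 220 and 420 CPM, and endothelial markers (4 genes) to 110 and 176 CPM. The hepatocyte genes Hamp and Hamp2, listed as mid-lobular, went opposite ways. Hamp was at 3949 CPM in NCD and 599 CPM in HFD, and Hamp2 at 53.2 and 174 CPM. Only Hamp in NCD was highest in the middle part, while Hamp2 in both sections and Hamp in HFD were highest periportally. The part of any of these in the ratios above was not tested, and in bulk spots fewer cells of a type and less RNA per cell cannot be told apart. Adrenal markers were near 0, with Cyp11b1 at 0 and Cyp11a1 at 0 and 1 UMIs, and Star at 7 and 15 UMIs.

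A wider list of 62 steroid-related genes was read beside the 8. Of these, 58 had a row and 34 had at least 200 UMIs. In HFD 7 of the 34 were lower and 4 higher past 2-fold, and 23 lay within 2-fold, with a median log2 ratio of −0.12. This compares with 1.84% lower and 9.3% higher among all genes tested and their median of 0.23. The list was written with earlier results of these data known, so the comparison is a description and supports nothing. Steroid hydroxylases held the largest group of lower genes, with 4 of 5 tested. Cyp7b1, an oxysterol 7α-hydroxylase, was at 190 CPM in NCD and 36.2 CPM in HFD (log2 −2.39, −2.46 to −2.32). Cyp2d9, a testosterone 16α-hydroxylase with higher expression in males, was at 1253 and 297 CPM (log2 −2.08). Cyp3a11, which 6β-hydroxylates testosterone, was at 4791 and 1483 CPM (log2 −1.69), and its relative Cyp3a25 at 689 and 308 CPM (log2 −1.16).

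The conjugating enzymes were split. Ugt2b1, a glucuronosyltransferase, was at 241 and 77.6 CPM (log2 −1.64), and Sult2a8, a bile acid sulfotransferase, at 503 and 171 CPM (log2 −1.56). Sult1e1, which sulfates and inactivates estrogens, was at 0.517 CPM in NCD (15 UMIs) and 3.83 CPM in HFD (276 UMIs), the highest ratio of the list (log2 2.89, 2.14 to 3.75). Of the AKR1C family 1 of 5 was lower, Akr1c19, at 95.3 and 46.4 CPM (log2 −1.04, −1.11 to −0.97), just past the 2-fold line. Hsd17b7 lay just inside it, at 33.9 and 17.1 CPM (log2 −0.98).

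Among the other higher genes, Cyp17a1, a steroid 17α-hydroxylase, was at 9.64 CPM in NCD (280 UMIs) and 43.2 CPM in HFD (3115 UMIs), a log2 ratio of 2.16 (1.99 to 2.34). In NCD it was highest in the periportal part, at 18.7, 7.77 and 5.10 CPM from periportal to pericentral. Hsd17b13, a lipid droplet protein of the 17β-HSD family, was at 273 and 848 CPM (log2 1.63, 1.60 to 1.67). Its NCD levels of 522, 258 and 108 CPM from periportal to pericentral had the direction of Hsd17b6. Serpina6, the corticosteroid-binding globulin of plasma, was at 74.9 and 151 CPM (log2 1.01, 0.94 to 1.08). The receptor genes Esr1, Nr3c1 and Nr3c2 lay within 2-fold, as did Por, which passes electrons to the P450 enzymes (434 and 251 CPM, log2 −0.79).

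**Figure D4:**
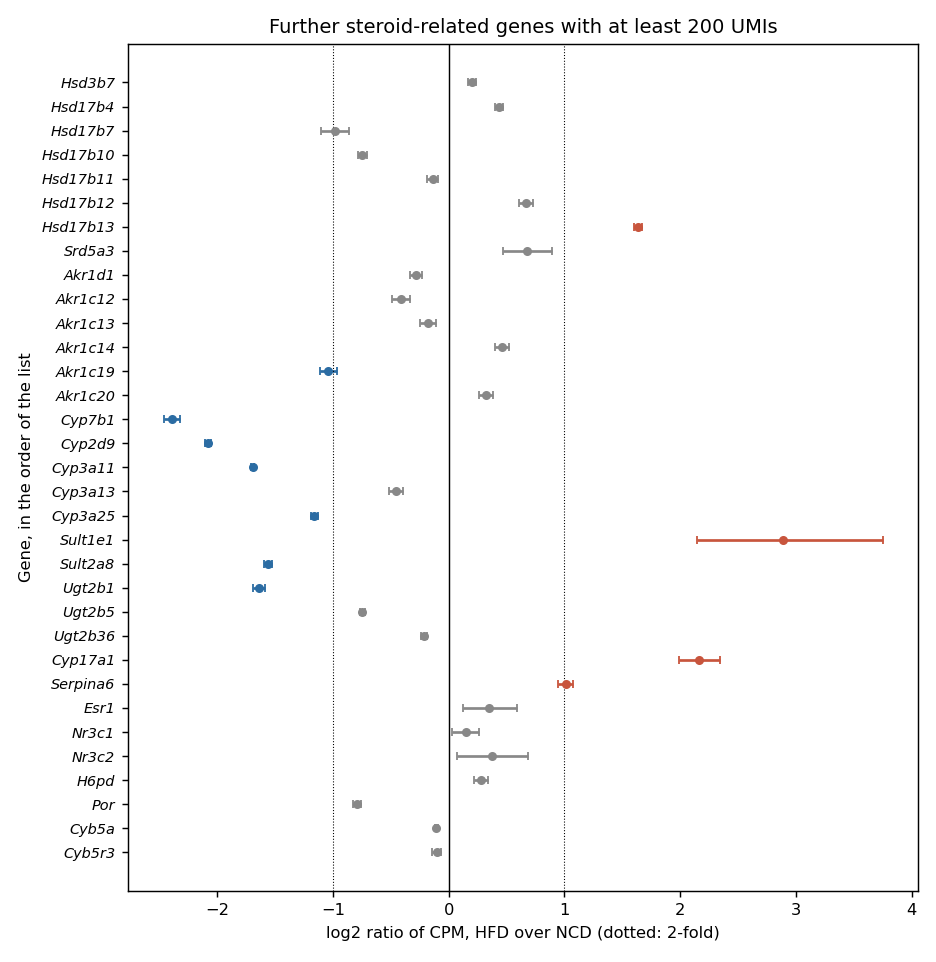
Log2 ratio of CPM, HFD over NCD, for the further steroid-related genes reported here that reached 200 UMIs in the sum of both sections, with 95% counting intervals; blue is lower and red higher past 2-fold (dotted lines). The lowest ratio is that of Cyp7b1 (−2.39) and the highest that of Sult1e1 (2.89).

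Genes whose pattern was most like Hsd3b5 were sought over 10 points, 5 equal bins of the lobule index in each section, by Pearson's r of log2(CPM + 1) among 6422 genes with at least 1000 UMIs. The points share the same pair of libraries, and the section difference sets most of their spread. The 5 highest were Atp5g3 (r = 0.997), Inmt (0.997), Cyp4a12b (0.997), Mug1 (0.993) and Ugt2a3 (0.993). Cyp4a12b had the lowest ratio of these, though not as low as Hsd3b5. This fatty acid ω-hydroxylase gene was counted 1438 times in NCD (49.5 CPM) and 26 times in HFD (0.361 CPM), a log2 ratio of −7.10 (−7.72 to −6.54), and its NCD levels were 26.6, 39.0 and 78.0 CPM from periportal to pericentral. The others had HFD over NCD log2 ratios between −1.25 (Mug1) and −0.66 (Atp5g3). Their NCD gradients were much shallower than that of Hsd3b5 (log2 1.69), between 0.19 (Atp5g3) and 0.52 (Mug1), because r does not measure size. Among the 8 genes, Hsd17b2 was the most like Hsd3b5 (r = 0.952), and Hsd3b3 the least (r = −0.844).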

How the data were processed

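The authors sequenced Visium libraries of 1 NCD and 1 HFD liver section and ran Space Ranger against mm10, per the labels. The deposited matrices hold UMI counts per gene and spot, unnormalized, for all spots of the capture area and for those over tissue. Spots over tissue were pooled per section, and a level is its UMIs per 1000000. Exact intervals were computed with SciPy 1.17.1 in Python 3.11.15. The ratio intervals were checked on simulated Poisson counts only. That is the model they assume, so the check cannot show how well they hold for these spots. Genes that reached 200 UMIs in the sum of both sections were compared, and 2-fold was the size used for counting. Named were the 8 genes, the listed steroid genes past 2-fold and the 5 genes most like Hsd3b5, while Hsd17b7, Hsd11b2, H6pd, Por, Cyp11b1, Cyp11a1, Star, Hsd3b1, Hsd3b4, Hsd3b6, Akr1c20 and the receptor genes named were added after their values were seen. The genes, lists and rules were chosen with earlier results of these data known. A listed gene that counts within the list is not reported here by itself. Positions come from GENCODE M21 (32158 of 32285 gene IDs matched) and windows from RefSeq. Depth ranged from 29037988 to 72118803 UMIs per section. No batch could be separated from diet.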

Additional observations from a re-analysis of the deposited data

Results flagged for a closer look

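Akr1c6 moved in opposite directions along the lobule, with a log2 HFD over NCD ratio of 0.32 in the periportal part (655 to 816 CPM) and −0.52 in the pericentral part (2020 to 1410 CPM). With 1 section per diet the difference was not tested, and the periportal value depends on the index markers.

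Hsd3b5 was counted outside the NCD tissue, in spots that the on-tissue levels above leave out. There it stood at 55.9 CPM (384 UMIs, 95% Poisson interval 50.4 to 61.8) against 61.4 CPM on tissue, while the spots outside the HFD tissue held 1 UMI of it.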

How the results depend on the processing

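With 1 section of 1 mouse per diet, no alternative here covers the spread between animals. No paired analysis was possible because each group had 1 sample. Hsd3b5 kept a log2 HFD over NCD ratio between −10.46 and −9.29 in 9 settings, and thinning to 1000 UMIs left it no HFD UMI and so no ratio. Hsd3b2 turned to 0.47 after thinning and Srd5a1 to 1.01 after subtraction of the off-tissue profile, which also made 2 genes higher past 2-fold instead of 1. Every other ratio of the 8 genes over whole sections kept its direction. When index and counts were thinned, the HFD gradient of Srd5a1 turned to 0.0012 and that of Hsd17b2 was also 0.0012. Few UMIs of these genes were left after thinning, so neither value settles the gradient. The NCD gradient of Hsd3b5 was 0.88 with the held-out markers as the index, which left 1 of the 8 genes higher pericentrally past 2-fold, and 2.28 between the outermost 20% of spots at each end. Between these ends of the HFD section, 1 gene was higher pericentrally and 2 periportally past 2-fold. The periportal ratio of Akr1c6 turned to −0.12 with the held-out markers. The share of NCD spots with Hsd3b5 was 17.0% at 3000 UMIs. Apart from how each alternative is built, the cause of these changes was not tested.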
